A study of Mus musculus with 40 samples.

Results

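The genes described here are 30 genes of cholesterol synthesis and of its control by SREBP2, measured by RNA sequencing in the livers of 40 male mice. Members were chosen by symbol from the known pathway, had to be listed in the count tables of both genotypes, and had to reach a CPM (counts scaled to the library total) of at least 1 in at least 5 of the 40 mice. All 30 did so, among 12942 genes that passed the same filter on low counts and 40594 genes listed in both tables. They comprise 8 genes of the mevalonate pathway, 12 genes of the conversion of farnesyl diphosphate into cholesterol, 5 regulators of sterol sensing and 5 further genes of sterol or acetyl-CoA handling.

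Each of 8 groups held 5 mice aged 5 months, on a C57BL6/J background as labelled. Wild-type mice (WT) and mice lacking PPARγ in the liver (KO) were fed from an age of 2 months for 3 months on control diet, on high-fat diet (HFD), or on either with added pioglitazone (Pio and HFD-Pio). Pio, a thiazolidinedione ligand of PPARγ, made up 0.01% of the supplemented diets by weight, and 60% of HFD calories came from fat. KO mice carried loxP-flanked PPARγ alleles and a Cre transgene under the albumin promoter, so that liver cells other than those of the hepatocyte lineage keep the gene, whereas WT mice were C57BL6/J mice from a commercial breeder and not floxed littermates. Pparg itself was measured at 5.79 to 14.2 CPM in the 20 WT livers and at 3.01 to 9.90 CPM in the 20 KO livers, and these whole-gene counts are not a measure of the deletion, since transcripts that lack the deleted exons can still be counted. Each genotype has its own count table, the effects of genotype and table cannot be told apart, and levels were compared only within a genotype. KO libraries held 21542958 to 28334251 counts and WT libraries 15788242 to 49857017, and the members ranged from 12 counts (Idi1, in its lowest liver) upwards.

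KO Pio mouse 13 stood apart from all other livers in library correlation and in hepatocyte markers. Its median Spearman correlation with the other libraries of its genotype was 0.773, against at least 0.957 for the other 19 KO livers, and 10 hepatocyte markers summed to 37394 CPM in it, against at least 81902 CPM in the other 39 livers. Among the members it had the lowest level of its group in 17 genes and the highest in 10. Its label was kept, and results that rest on it are given with and without it. Its share of rRNA counts was 0.0617%, near that of WT HFD mouse 829 (0.0647%), against at least 0.148% in the other livers. Correlations in WT were 0.936 for control mouse 832, 0.949 for HFD mouse 829 and 0.952 for Pio mouse 845, against at least 0.97 otherwise. Mice 829 and 832 enter the HFD comparison without Pio in WT liver. A fit without the 5 least correlated libraries is given below. No hepatocyte marker was at 0 in any group. Adipocyte markers (7 listed, 4 past the filter) summed to 76.4 to 277 CPM in WT Pio livers against 13.0 to 22.8 CPM in WT control livers and to 36.6 to 181 CPM in WT HFD-Pio against 14.1 to 30.6 CPM in WT HFD livers. In KO livers they reached 47.2 CPM in mouse 13 and at most 17.6 CPM on HFD. Pancreatic acinar markers (6 listed, 1 past the filter) summed to 539.6 CPM in the highest KO HFD liver and to 139 CPM in KO Pio mouse 13. Skeletal muscle markers (4 listed, 0 past the filter) summed to at most 13.1 CPM. Their part in the results on the members was not tested, and fewer cells of a type cannot be told apart from less RNA per cell in whole liver.

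Cholesterol is built from acetyl-CoA through mevalonate, isoprenoid diphosphates, squalene and lanosterol, mostly in the endoplasmic reticulum of hepatocytes. When sterols in that membrane are low, the escort protein SCAP carries the precursor of SREBP2 to the Golgi, where it is cleaved, and the released factor activates nearly every enzyme of the pathway together with the receptors that take up lipoproteins. When sterols are plentiful, INSIG proteins hold SCAP back. SREBP1c, a product of Srebf1, chiefly drives fatty acid synthesis and responds to insulin and oxysterols.

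SREBP binds sterol regulatory elements and needs neighbouring factors, above all NF-Y, which binds CCAAT boxes. RefSeq promoters of GRCm38.p6, which run from 250 bases before to 50 bases after each transcription start, were held for 26 of the 30 members. CCAAT was found on either strand (other strand ATTGG) in 23 of these 26, against 42.7% of the tested genes that have an entry and 37.4% of all 32851 promoters. The members without it were Aacs, Acat2 and Scap. The letters CACNCCAN (other strand NTGGNGTG), a sterol element core, were found in 6 of 26 members, against 20.9% of tested genes and 18.4% of all promoters. These members were Acat2, Hmgcs1, Insig1, Insig2, Msmo1 and Srebf2. The stricter form CACNCCAC, which lies within it, was found in 3, against 7.83% and 6.24%. Neither count sets the members apart from other genes, and whether SREBP binds at a match was not tested. The 190 bases before the start are printed below for 7 members that rose on HFD in KO liver and have a single entry, and for the regulators Insig1 and Srebf2, with CCAAT boxes and CACNCCAN matches in capitals, 5′ to 3′ in the direction of transcription.

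Hmgcs1 (chr13:119690161-119690350, plus strand): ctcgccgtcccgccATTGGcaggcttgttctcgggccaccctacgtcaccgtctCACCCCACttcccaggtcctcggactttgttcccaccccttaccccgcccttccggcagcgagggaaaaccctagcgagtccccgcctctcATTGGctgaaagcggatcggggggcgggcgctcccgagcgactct
Mvk (chr5:114444079-114444268, plus strand): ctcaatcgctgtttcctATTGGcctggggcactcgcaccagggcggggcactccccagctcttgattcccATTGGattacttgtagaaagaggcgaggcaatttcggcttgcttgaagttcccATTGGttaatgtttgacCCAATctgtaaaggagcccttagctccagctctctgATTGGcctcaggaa
Idi1 (chr13:8885416-8885605, plus strand): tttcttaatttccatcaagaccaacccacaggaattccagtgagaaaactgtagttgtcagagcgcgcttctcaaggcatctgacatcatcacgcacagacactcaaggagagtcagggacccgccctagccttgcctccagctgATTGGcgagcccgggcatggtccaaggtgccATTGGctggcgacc
Cyp51 (chr5:4104698-4104887, minus strand): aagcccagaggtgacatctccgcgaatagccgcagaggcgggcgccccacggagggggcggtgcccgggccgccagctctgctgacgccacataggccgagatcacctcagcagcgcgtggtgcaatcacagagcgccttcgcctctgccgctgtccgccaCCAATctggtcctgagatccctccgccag
Msmo1 (chr8:64733579-64733768, minus strand): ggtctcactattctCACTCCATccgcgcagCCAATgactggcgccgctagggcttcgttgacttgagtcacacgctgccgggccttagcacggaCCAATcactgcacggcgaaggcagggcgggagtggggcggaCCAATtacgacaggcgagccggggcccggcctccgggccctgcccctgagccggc
Nsdhl (chrX:72918331-72918520, plus strand): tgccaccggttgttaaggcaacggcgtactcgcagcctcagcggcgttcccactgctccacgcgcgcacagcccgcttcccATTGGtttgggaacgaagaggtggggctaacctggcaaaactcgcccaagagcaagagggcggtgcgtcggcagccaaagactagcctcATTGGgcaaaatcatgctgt
Hsd17b7 (chr1:169969206-169969395, minus strand): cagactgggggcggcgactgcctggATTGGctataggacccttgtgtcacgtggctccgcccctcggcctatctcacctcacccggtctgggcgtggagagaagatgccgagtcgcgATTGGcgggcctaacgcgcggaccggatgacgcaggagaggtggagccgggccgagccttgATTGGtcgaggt
Insig1 (chr5:28071222-28071411, plus strand): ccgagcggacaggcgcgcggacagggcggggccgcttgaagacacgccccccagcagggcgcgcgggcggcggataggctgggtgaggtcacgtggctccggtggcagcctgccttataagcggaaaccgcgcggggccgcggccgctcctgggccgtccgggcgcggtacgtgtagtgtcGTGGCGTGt
Srebf2 (chr15:82147079-82147268, plus strand): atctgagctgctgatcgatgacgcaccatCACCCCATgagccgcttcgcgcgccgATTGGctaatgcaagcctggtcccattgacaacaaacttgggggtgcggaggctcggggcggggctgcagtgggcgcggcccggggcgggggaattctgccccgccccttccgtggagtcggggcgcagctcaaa

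The Hmgcs1 stretch holds a CACNCCAN match that begins 136 bases before the start and lies between a pair of inverted CCAAT boxes. In Msmo1 the match begins 176 bases before the start and is followed by CCAAT boxes, in Srebf2 it begins 161 bases before the start, and in Insig1 it lies on the other strand, 9 bases before the start. Mvk, Idi1, Cyp51, Nsdhl and Hsd17b7 hold CCAAT boxes without a CACNCCAN match in this window, which describes these letters only.

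Levels were first compared between members per length, as RPKM (CPM divided by exon length in kilobases, from the union of GENCODE M21 exons). In WT control liver the highest levels were those of Sc5d, the sterol desaturase, at 117 ± 37.7 RPKM (mean ± SD, n = 5), Srebf1 at 115 ± 24.5, Ebp, the sterol isomerase, at 114 ± 29.6, Insig1 at 95.3 ± 47.2 and Insig2 at 77.8 ± 13.0. Among the first 4 genes, differences between neighbours were smaller than the SD of either gene, while that between Insig1 and Insig2 was larger than the SD of Insig2 but not that of Insig1. The lowest were Idi1, the isopentenyl diphosphate isomerase, at 0.379 ± 0.107 RPKM and Ggps1, which makes geranylgeranyl diphosphate, at 0.470 ± 0.091 RPKM. Exons of both overlap another gene on the other strand. Only unambiguous reads were counted, so reads there can be lost while the full exon length divides the counts. Hmgcs1, the synthase that makes the precursor of mevalonate, ranked 7th of the 30 genes in WT control liver and 6th in KO control liver but 1st in KO HFD liver, at 154 ± 55.1 RPKM. Msmo1, the methylsterol oxidase, moved from rank 18 in KO control liver to rank 8 in KO HFD liver.

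On HFD without Pio, 10 of the 30 members rose in KO liver and none fell, by the quasi-likelihood test of edgeR, adjusted over all 12942 genes by the Benjamini-Hochberg method, with a gene called where the adjusted p did not exceed 0.05. Across all genes, 21 were called higher (0.162%) and 3 lower (0.0232%), so that 10 of the 21 genes called higher were members. The members were chosen with earlier results of these data known, so this share is a description and not a test. Values for 10 members lay higher in every KO HFD mouse than in any KO control mouse, as did those of 1.33% of all genes tested, with Lbr among them and Fdft1 not. The 10 genes called were Hmgcs1, Mvk and Idi1 of the mevalonate pathway and Fdft1, Sqle, Cyp51, Msmo1, Nsdhl, Hsd17b7 and Dhcr7 of the sterol steps. The median log2 fold change was 0.79 over the members and -0.01 over all genes, and 26 members had a positive value.

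Among the mevalonate genes, Hmgcs1 (ENSMUSG00000093930, chr13:119690379-119708260, GRCm38) was measured at 132, 167, 259, 103 and 58.4 CPM in KO control mice 1 to 5. In KO HFD mice 6 to 10 it was measured at 865, 826, 945, 338 and 552 CPM, in order of mouse number as in all such series. Every HFD value exceeded every control value, and the log2 fold change was 2.29 ± 0.41 (SE, edgeR adjusted p = 0.00889). Its exact two-sided permutation test on CPM gave p = 0.00794, the smallest value that 5 against 5 mice allow, unadjusted for the 240 such tests made. Mvk, the mevalonate kinase, rose by 1.78 ± 0.29 (edgeR adjusted p = 0.00785) and Idi1 by 2.20 ± 0.39 (edgeR adjusted p = 0.00889), the latter at low counts. Acat2, the thiolase of the first condensation, Pmvk, the phosphomevalonate kinase, Mvd, the decarboxylase, and Fdps, the farnesyl diphosphate synthase, had values of 0.78 to 1.51 that did not pass the test (edgeR adjusted p of at least 0.397). Ggps1, at the branch that leads away from sterols, had -0.07 ± 0.25.

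Among the sterol genes, Sqle, the squalene epoxidase (ENSMUSG00000022351, chr15:59315077-59331192), was measured at 31.2, 36.1, 80.1, 13.5 and 7.67 CPM in KO control mice and at 165, 185, 187, 141 and 121 CPM in KO HFD mice. The groups did not overlap, and control mouse 3 was the nearest to the HFD mice (log2 fold change 2.25 ± 0.42, edgeR adjusted p = 0.0113). Msmo1 (ENSMUSG00000031604, chr8:64718139-64733792) was measured at 60.9, 50.4, 139, 38.0 and 28.9 CPM in KO control mice and at 304, 300.2, 362, 173 and 243 CPM in KO HFD mice. Here too the groups did not overlap, with control mouse 3 nearest to the HFD mice (log2 fold change 2.12 ± 0.42, edgeR adjusted p = 0.0138). Nsdhl, which removes a carboxyl group from the sterol ring, rose by 1.92 ± 0.43 (edgeR adjusted p = 0.0403). Cyp51, the lanosterol demethylase, rose by 1.75 ± 0.33 (edgeR adjusted p = 0.0129). Hsd17b7, the keto reductase of the same demethylation, rose by 1.44 ± 0.31 (edgeR adjusted p = 0.0289).

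Dhcr7, a reductase of the last steps (ENSMUSG00000058454, chr7:143823145-143848410), was measured at 61.7, 82.3, 109, 30.8 and 41.3 CPM in KO control mice and at 199, 201, 217, 173 and 143 CPM in KO HFD mice. Every HFD value was the higher one (log2 fold change 1.52 ± 0.32, edgeR adjusted p = 0.0255). Fdft1, the squalene synthase (ENSMUSG00000021273, chr14:63145150-63179578), was measured at 42.8, 39.1, 85.6, 35.4 and 22.9 CPM in KO control mice and at 146, 146, 149, 73.9 and 105 CPM in KO HFD mice. Control mouse 3 lay above HFD mouse 9, so that the groups overlapped (log2 fold change 1.46 ± 0.28, edgeR adjusted p = 0.0129). Exons of Fdft1 overlap those of Ctsb on the other strand, and those of Cyp51 overlap Akap9, and the library preparation does not mark strand. Lss, the lanosterol synthase, had 1.16 ± 0.35, Tm7sf2 and Lbr, both sterol reductases, 0.67 ± 0.32 and 0.45 ± 0.18, Sc5d 0.54 ± 0.30 and Ebp 0.24 ± 0.21, none past the test. Exons of Tm7sf2 overlap Vps51 on the same strand, and those of Lbr overlap Dnah14.

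None of the 5 regulators was called, and 1 of them without KO Pio mouse 13. Srebf2, which encodes SREBP2 (ENSMUSG00000022463, chr15:82147181-82205379), was measured at 61.4, 57.2, 89.2, 56.8 and 50.6 CPM in KO control mice and at 107, 124, 125, 88.5 and 103 CPM in KO HFD mice. HFD mouse 9 lay just under control mouse 3, and the log2 fold change was 0.80 ± 0.27 (edgeR adjusted p = 0.559, or 0.00901 without KO Pio mouse 13). Insig1 (ENSMUSG00000045294, chr5:28071363-28078662) was measured at 176, 194, 173, 99.3 and 114 CPM against 287, 297, 303, 144 and 206 CPM in the same groups, which overlapped (0.71 ± 0.33). Insig2 (ENSMUSG00000003721, chr1:121304353-121332589) was measured at 247, 274, 156, 179 and 266 CPM against 216, 194, 185, 242 and 204 CPM, with overlapping groups (-0.11 ± 0.31). Srebf1 (ENSMUSG00000020538, chr11:60199089-60222581) was measured at 520.1, 512, 403, 241 and 258 CPM against 348, 281, 378, 134 and 169 CPM, also overlapping and with a negative value (-0.56 ± 0.40). Scap had 0.12 ± 0.28. Of the further genes, Tmem97, a sterol-regulated membrane protein, had 0.55 ± 0.18, Acss2, the cytosolic acetyl-CoA synthetase, 0.50 ± 0.39, Mylip, the ubiquitin ligase IDOL and a known LXR target, 0.23 ± 0.26, Stard4, a sterol transfer protein, 0.18 ± 0.31 and Aacs, the acetoacetyl-CoA synthetase, -0.46 ± 0.37, all with an edgeR adjusted p of at least 0.502.

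With KO Pio mouse 13 left out, 11 members were called in this comparison, against 0.386% of all genes called in either direction. They were the 10 genes and Srebf2. The count depended on the KO control mice and on the groups fitted together. It was 1 without KO control mouse 4, 4 without mouse 1 and 4 without mouse 5, and in those 3 fits all members that lost the call kept a positive log2 fold change. When the KO livers were fitted alone, edgeR called 0 members and 0 genes in all, with 18 members at an unadjusted p under 0.05 and a median of 0.80. Here and below, counts at an unadjusted p are given without the share of all genes at that cut, and no excess over it is claimed. DESeq2 called 10 members and limma with sample weights 21. For DESeq2, limma and most fits that left out 1 mouse, the share of all genes called is not given, here or below. A higher count of members in such a fit may go with more calls among all genes.

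Beside the members, 7 lists of neighbouring pathways held 104 symbols of which 101 were tested. By edgeR 0 of the 101 were called on HFD in KO liver, against 0.162% of all genes called higher and 0.0232% lower. At those shares a count of 0 does not set the lists apart from other genes. An unadjusted edgeR p under 0.05 was found for 11, and DESeq2 called 0 and limma 6. Median log2 fold changes were 0.03 for 13 genes of the isoprenoid branch outside sterols, -0.05 for 14 genes of SREBP processing and degradation, -0.06 for 24 genes of sterol efflux, storage and transport, -0.54 for 17 fatty acid synthesis genes known as SREBP1c targets, -0.14 for 8 electron donors and accessory proteins of the sterol steps, -0.23 for 15 clock genes and 0.07 for 10 genes of fasting and feeding.

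**Figure D1:**
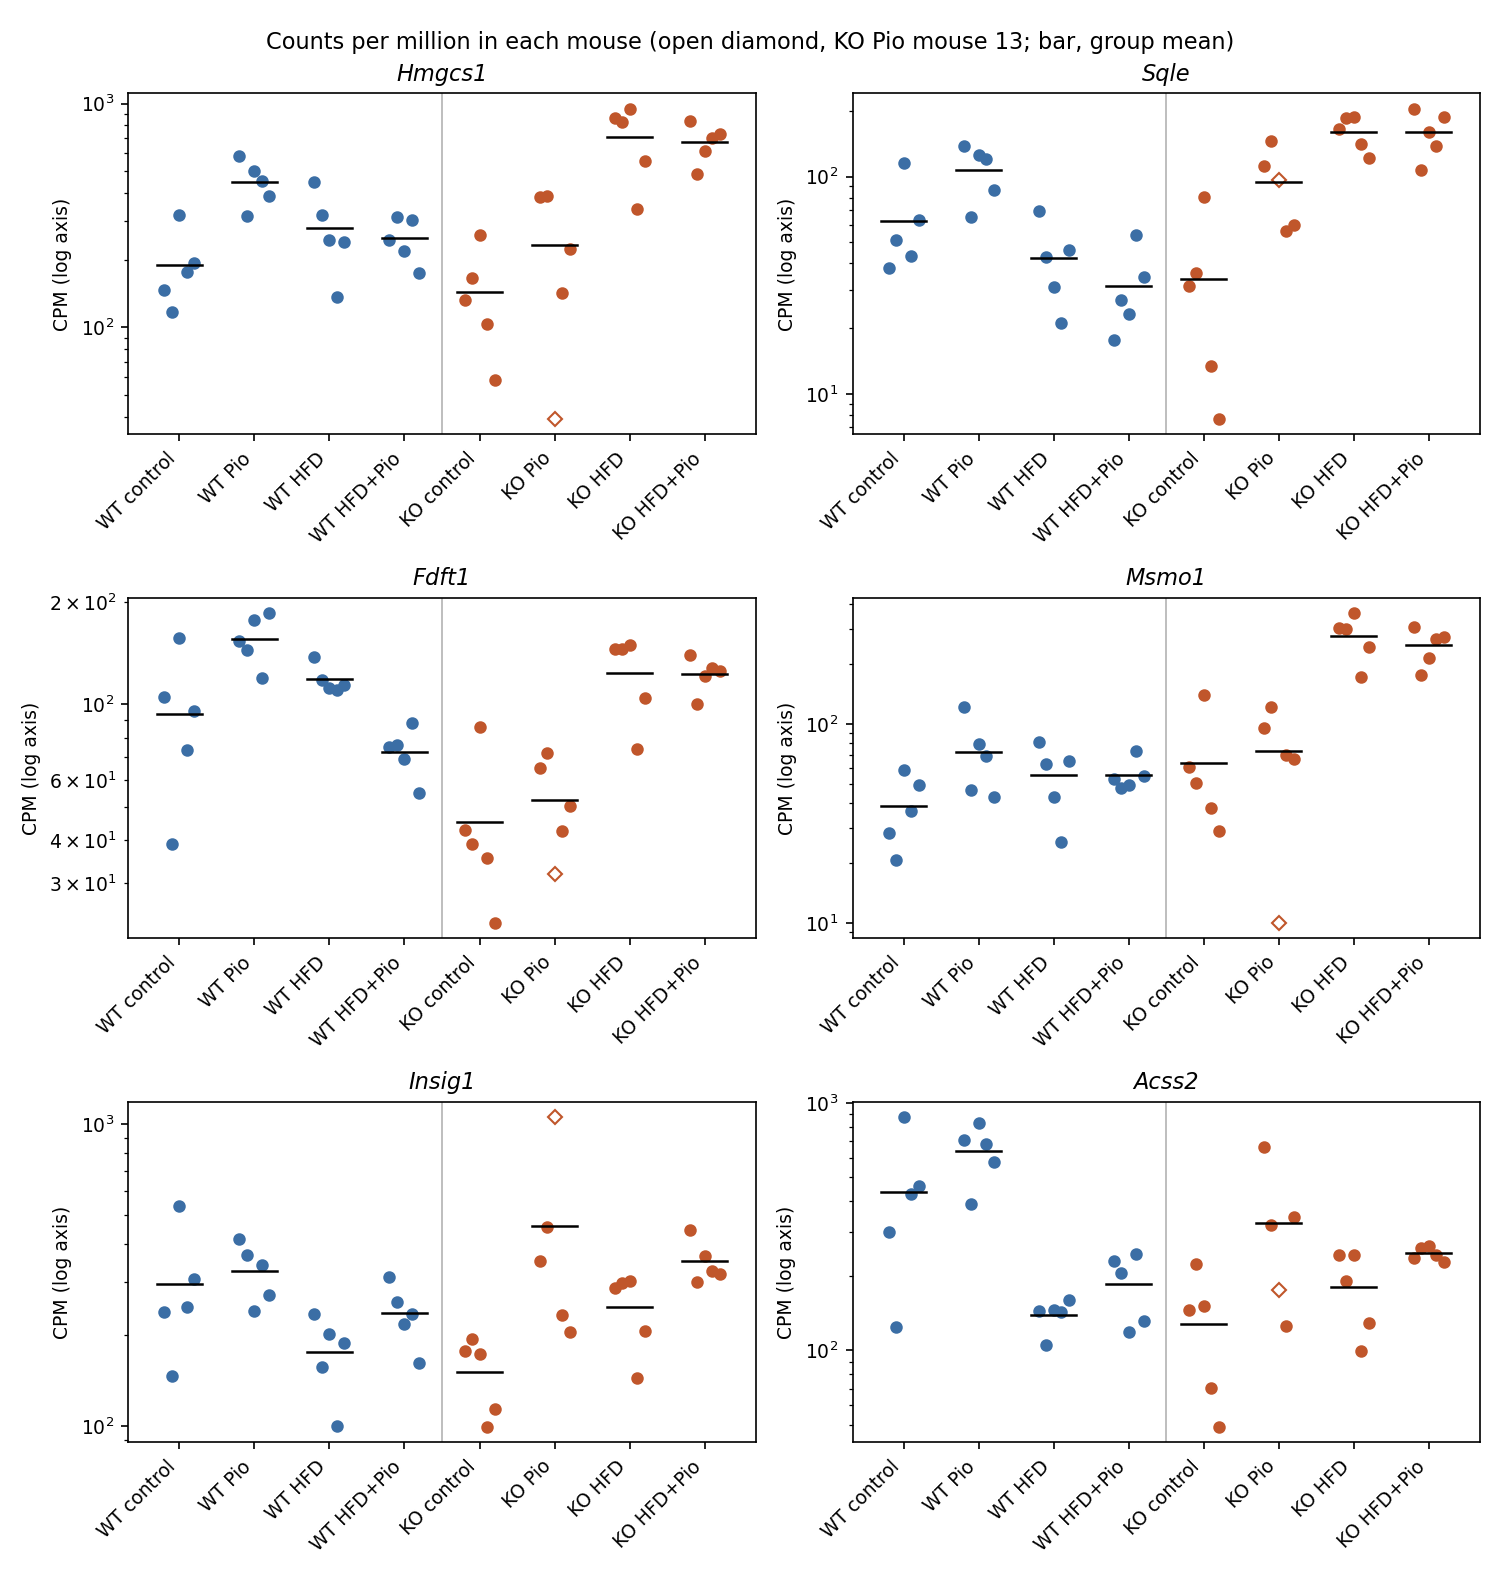
CPM on a log axis in each of the 40 mice for Hmgcs1, Sqle, Fdft1, Msmo1, Insig1 and Acss2, with WT groups in blue, KO groups in orange, bars for group means and an open diamond for KO Pio mouse 13. Hmgcs1, Sqle and Msmo1 lie higher in all 5 KO HFD mice than in any KO control mouse, while for Acss2 WT control mouse 832, at 125 CPM, lies among the WT HFD mice and the other 4 WT control mice lie above them.

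In WT liver, HFD without Pio gave 1 call among the members, a fall of Acss2. Across all genes 77 were called higher (0.595%) and 93 lower (0.719%), the median log2 fold change of the members was -0.19, and 11 members had a positive and 19 a negative value. Acss2 (ENSMUSG00000027605, chr2:155517948-155585724) was measured at 301, 125, 877, 428 and 461 CPM in WT control mice 831 to 835 and at 145, 105, 146, 143 and 159 CPM in WT HFD mice 826 to 830. Control mouse 832 lay among the HFD mice and the other 4 above them (log2 fold change -1.65 ± 0.40, edgeR adjusted p = 0.0242). Exons of Acss2 overlap Gss and Ggt7 on the other strand. The call was lost without WT HFD mouse 827, 828 or 829 and without WT control mouse 833, with log2 fold changes of -1.90 to -1.25 over the fits that left out 1 mouse, and 1 member was also called without KO Pio mouse 13.

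None of the 10 genes that rose in KO liver was called in WT liver. Hmgcs1 was measured at 147, 117, 319, 176 and 193 CPM in WT control mice and at 445, 317, 246, 136 and 242 CPM in WT HFD mice, with overlapping groups (log2 fold change 0.54 ± 0.39, edgeR adjusted p = 0.605). Sqle was measured at 37.9, 51.0, 116, 43.0 and 63.2 against 69.6, 42.4, 31.0, 21.2 and 45.9 CPM in the same groups, again overlapping (log2 fold change -0.56 ± 0.40, edgeR adjusted p = 0.601). Fdft1, at 105, 38.9, 157, 73.7 and 95.9 against 138, 118, 112, 110.2 and 114 CPM, had 0.33 ± 0.27. WT control mouse 832 was its lowest and mouse 833 its highest liver in that comparison. Msmo1 was measured at 28.4, 20.7, 58.4, 36.4 and 49.3 against 81.0, 63.3, 43.1, 25.4 and 65.2 CPM (0.53 ± 0.41), and Dhcr7 at 165, 110.1, 340.1, 165 and 189.6 against 175, 145, 125, 201 and 150.2 CPM (-0.28 ± 0.32). Both overlapped between groups. Mvk had 0.72 ± 0.29, Idi1 0.67 ± 0.40, Cyp51 0.21 ± 0.32, Nsdhl 0.19 ± 0.42 and Hsd17b7 -0.01 ± 0.30.

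Among the regulators in WT liver, Insig1 was measured at 238, 146, 535, 249 and 306 CPM on control diet and at 234, 156, 201, 100.1 and 189 CPM on HFD (-0.74 ± 0.33). Its groups overlapped. Insig2 was measured at 215, 311, 229, 306 and 289 against 196, 174, 241, 80.7 and 229 CPM (-0.55 ± 0.32), with WT HFD mouse 829 the lowest. The same mouse was the highest of its group for Srebf2, at 132, 124, 158, 111 and 102 CPM on control diet and 140.4, 105, 151, 256 and 148 CPM on HFD (0.35 ± 0.27). Srebf1 was measured at 882, 576, 610.4, 634 and 526 against 318, 293, 443, 642 and 356 CPM (-0.65 ± 0.40), where HFD mouse 829 again was the highest of its group and the only one inside the control range. The remaining members, Acat2, Pmvk, Mvd, Fdps, Ggps1, Lss, Tm7sf2, Lbr, Ebp, Sc5d, Scap, Stard4, Mylip, Aacs and Tmem97, had log2 fold changes of -0.98 to 0.22, none past the test. Beside these, 6 of the 17 fatty acid synthesis genes fell, with a list median of -1.39, among them Acly, the ATP citrate lyase (log2 fold change -1.93 ± 0.44), and Scd1, the stearoyl-CoA desaturase (-2.51 ± 0.57).

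The difference between the diet effects of the genotypes was tested in the same fit. Without Pio, the value was positive, higher in KO, for all 30 members, with a median of 1.29 against -0.01 over all genes, and 20 members had an unadjusted p under 0.05. At an adjusted p of at most 0.05 it was called for 1 member, Sqle, against 8 genes in all (0.0618%). Sqle had a diet effect of 2.25 ± 0.42 in KO and -0.56 ± 0.40 in WT liver, a difference of 2.81 ± 0.58 (edgeR adjusted p = 0.0447). The call was lost in 12 of the 40 fits that left out 1 mouse, namely WT control mice 832, 833 and 835, WT HFD mice 828 and 829, KO control mice 1 and 4, KO HFD mouse 9 and KO HFD-Pio mice 16, 18, 19 and 20, with differences of 2.48 to 3.43. It was also lost without the filter on low counts, when 0 members were called and 20 had an unadjusted p under 0.05. DESeq2 called 5 members and limma 16. For the same difference the 15 clock genes had a median of -0.94, with 0 called and 6 at an unadjusted p under 0.05. Their median for HFD without Pio was 0.60 in WT liver, with 1 called higher, and -0.23 in KO liver, with 0 called. Whether clock time bears on the difference of the members was not tested.

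Without KO Pio mouse 13, which is in none of the 4 groups of that difference but enters the shared estimate of spread, 9 members were called, against 1.05% of all genes. They were Hmgcs1 (1.77), Pmvk (2.03), Fdps (2.37), Sqle (2.83), Lss (1.71), Hsd17b7 (1.48), Dhcr7 (1.83), Insig1 (1.48) and Acss2 (2.18) on the log2 scale. Without KO control mouse 3 there were 3 calls. Pmvk and Fdps had negative diet effects in WT (-0.85 and -0.98) and positive ones in KO liver (1.16 and 1.36). Srebf2 and Scap had small differences, 0.44 ± 0.39 and 0.04 ± 0.40. These differences share their control groups with the comparisons of Pio on control diet.

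**Figure D2:**
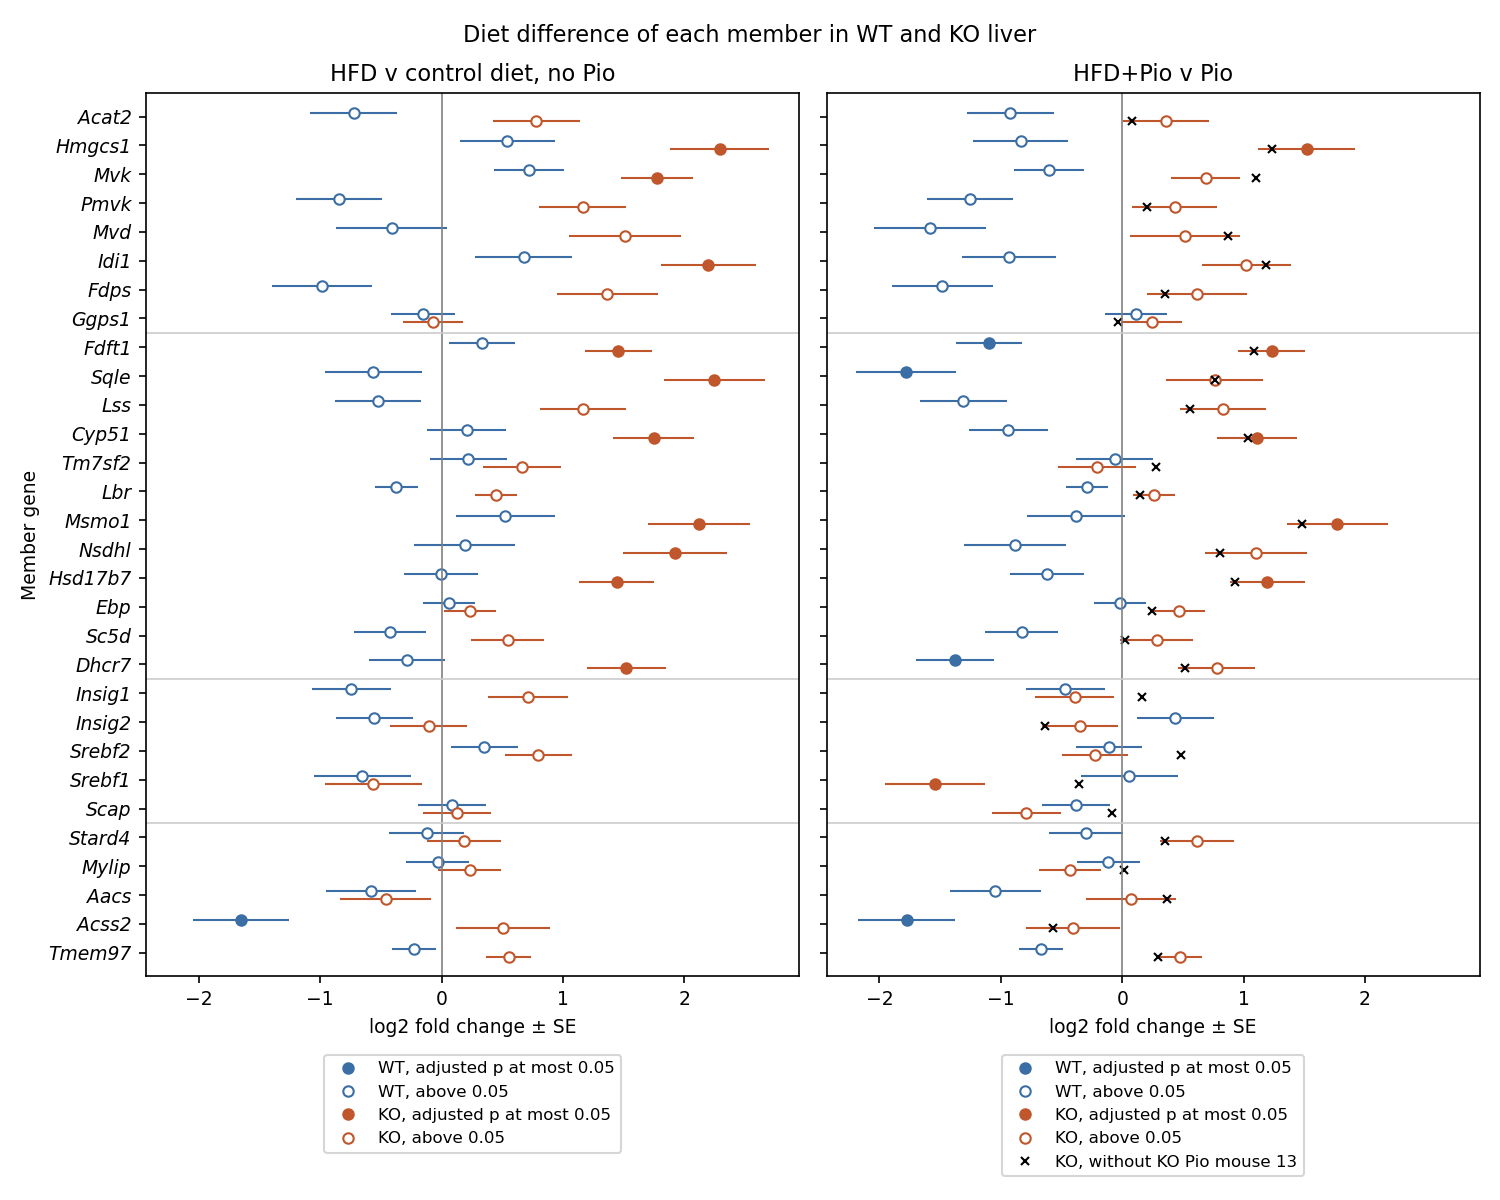
Log2 fold change ± SE of each of the 30 members for HFD against control diet (left) and HFD-Pio against Pio (right), WT in blue and KO in orange, filled where the edgeR adjusted p was at most 0.05, with crosses in the right panel for KO without mouse 13. Without Pio 10 KO values and 1 WT value are filled, and with Pio 4 WT values lie filled to the left and 6 KO values are filled, of which only Srebf1 is negative.

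Under Pio, HFD lowered 4 members in WT liver and raised none. They were Sqle, Acss2, Dhcr7 and Fdft1. Across all genes 125 were called lower (0.966%) and 33 higher (0.255%), and the members' median was -0.75. Values for 14 members lay lower in every HFD-Pio mouse than in any Pio mouse, as did those of 3.59% of all genes tested. Sqle was measured at 138, 65.0, 126, 120.3 and 86.4 CPM in WT Pio mice 841 to 845 and at 17.7, 27.1, 23.4, 53.7 and 34.5 CPM in WT HFD-Pio mice 836 to 840 (log2 fold change -1.78 ± 0.41, edgeR adjusted p = 0.0203). The groups did not overlap. Acss2 was measured at 710.2, 389.6, 827, 685 and 577 against 229, 206, 119, 246 and 131 CPM (log2 fold change -1.78 ± 0.40, edgeR adjusted p = 0.0179). Dhcr7 was measured at 301, 318, 339, 270.1 and 324 against 124, 119.9, 93.2, 146 and 116 CPM (log2 fold change -1.37 ± 0.32, edgeR adjusted p = 0.0213). Fdft1 was measured at 154, 144, 177, 119 and 185 against 75.2, 76.2, 69.2, 88.4 and 55.0 CPM (log2 fold change -1.10 ± 0.27, edgeR adjusted p = 0.0345). None of these 3 genes overlapped between the groups either.

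When KO Pio mouse 13 was left out, 11 members were called lower and none higher, against 8.68% of all genes called in either direction. The 7 further genes were Acat2 (-0.93), Pmvk (-1.26), Mvd (-1.59) and Fdps (-1.49) of the mevalonate pathway, Lss (-1.31) and Sc5d (-0.84) of the sterol steps, and Tmem97 (-0.68). The count of 4 fell to 0 without WT HFD-Pio mouse 838 or 840 or WT Pio mouse 843 and to 2 without WT HFD-Pio mouse 836 or 837 or WT Pio mouse 845, and rose to 8 without WT control mouse 832 and to 7 without KO control mouse 3. With the WT livers fitted alone it was 11, by DESeq2 9 and by limma 16.

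Other members did not pass the test. Hmgcs1 was measured at 581, 314, 498, 452 and 387 CPM in WT Pio and at 245, 310.0, 219, 301 and 175 CPM in WT HFD-Pio mice, groups that did not overlap (log2 fold change -0.84 ± 0.39, edgeR adjusted p = 0.321). Msmo1, at 122, 46.5, 79.4, 69.3 and 43.0 against 52.9, 47.6, 49.3, 73.0 and 54.7 CPM, overlapped (-0.38 ± 0.40). The regulators had log2 fold changes of -0.47 to 0.44, Mvk, Idi1, Cyp51, Nsdhl and Hsd17b7 of -0.94 to -0.60, and Ggps1, Tm7sf2, Lbr, Ebp, Stard4, Mylip and Aacs of -1.05 to 0.11. In the lists beside the members, 5 of the 17 fatty acid synthesis genes and 2 of the 8 accessory proteins of the sterol steps fell, namely Cyb5r3, a cytochrome b5 reductase (log2 fold change -1.25 ± 0.26), and Rdh11, a retinol dehydrogenase (-1.56 ± 0.41).

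In KO liver under Pio, 5 members were called higher on HFD and 1 lower, against 55 genes higher (0.425%) and 587 lower (4.54%), with a median of 0.47. Values for 7 members lay higher in every HFD-Pio mouse than in any Pio mouse, against 1.23% of all genes. Msmo1 was measured at 95.6, 122, 10.0, 69.7 and 66.8 CPM in KO Pio mice 11 to 15 and at 309, 176, 216, 269 and 273 CPM in KO HFD-Pio mice 16 to 20 (log2 fold change 1.77 ± 0.42, edgeR adjusted p = 0.0321). Mouse 13 was the lowest, and no Pio mouse reached the HFD-Pio mice. Hmgcs1 was measured at 383, 385, 39.1, 142 and 225 against 834, 483, 614, 699 and 731 CPM (log2 fold change 1.52 ± 0.40, edgeR adjusted p = 0.0399), and Fdft1 at 65.2, 72.2, 31.7, 42.5 and 50.5 against 140.1, 100.4, 121, 128 and 125 CPM (log2 fold change 1.23 ± 0.27, edgeR adjusted p = 0.0307). Neither overlapped between the groups. Cyp51 (1.11) and Hsd17b7 (1.19) were the other calls in this direction. Srebf1, the lower one, was measured at 382, 351, 2905, 419.9 and 415 against 302, 324, 389.7, 282 and 237 CPM (log2 fold change -1.54 ± 0.41, edgeR adjusted p = 0.0399), with mouse 13 far above every other liver.

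Without mouse 13, 0 members were called by edgeR in this comparison, 10 had an unadjusted p under 0.05, and 0.0927% of all genes were called. The log2 fold changes were then 1.48 for Msmo1, 1.24 for Hmgcs1, 1.09 for Fdft1, 1.03 for Cyp51, 0.92 for Hsd17b7 and -0.36 for Srebf1. No member was called either when any 1 of KO HFD-Pio mice 16 to 20 was left out, nor when the KO livers were fitted alone (11 members at an unadjusted p under 0.05), and without the filter on low counts 1 was called. Sqle, at 112, 146, 96.8, 56.2 and 59.7 CPM in KO Pio and 205, 107, 161, 139 and 187 CPM in KO HFD-Pio mice, overlapped and was not called (0.76 ± 0.40). Dhcr7, at 162, 164, 23.7, 74.4 and 98.2 against 220.2, 142, 191, 175 and 167 CPM, had 0.78 ± 0.32. Among regulators, Srebf2 was measured at 75.4, 85.9, 314, 73.1 and 65.7 against 118, 83.4, 103, 104 and 117 CPM (-0.22 ± 0.27, or 0.48 without mouse 13), and Insig2 at 322, 201, 31.3, 234 and 247 against 142, 188, 138, 178 and 168 CPM (-0.35 ± 0.31). The remaining 20 members had values of -0.79 to 1.10, or -0.57 to 1.19 without mouse 13, when Insig1 moved from -0.39 to 0.16, Tm7sf2 from -0.21 to 0.28 and Mylip from -0.43 to 0.02, and the median of all 30 members was 0.35.

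The difference between these diet effects under Pio was called for 1 member, Fdft1, against 2 genes in all (0.0155%). The diet effect of Fdft1 was 1.23 ± 0.27 in KO and -1.10 ± 0.27 in WT liver, a difference of 2.33 ± 0.39 (edgeR adjusted p = 0.0082). Without KO Pio mouse 13 it was 2.20 (edgeR adjusted p = 0.0232), when Fdft1 was the 1 gene called of all tested (0.00773%), and the call held in all 40 fits that left out 1 mouse. The median difference over the members was 1.29, against -0.03 over all genes, and 22 members had an unadjusted p under 0.05. Sqle (2.54 ± 0.57), Hmgcs1 (2.35 ± 0.56) and Dhcr7 (2.15 ± 0.45) were not called, at an edgeR adjusted p of 0.0669, 0.0773 and 0.0669. The count of 1 rose to 13 and 9 when KO Pio mouse 11 or 12 was left out, to 8 without WT Pio mouse 841, to 4 when KO control mouse 3 or 5 was left out and to 2 without WT control mouse 833, and was 11 by DESeq2 and 20 by limma. Values below 0, all uncalled, were those of Srebf1 (-1.60), Insig2 (-0.79), Scap (-0.41), Mylip (-0.31), Tm7sf2 (-0.15) and Srebf2 (-0.12). Of these 6 values, 4 were above 0 without KO Pio mouse 13. With it left out Srebf1 had -0.41, Insig2 -1.06, Scap 0.31, Mylip 0.14, Tm7sf2 0.35 and Srebf2 0.60, Ggps1 moved from 0.13 to -0.14, and none of these was called.

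Pio on control diet raised 1 member in WT liver, Tmem97, against 316 genes higher (2.44%) and 190 lower (1.47%). At those shares a count of 1 does not set the members apart from other genes. The members' median was 0.65 against -0.02 over all genes, and 25 of 30 had a positive value. Tmem97 (ENSMUSG00000037278, chr11:78541817-78550777) was measured at 32.6, 31.7, 43.5, 27.8 and 31.8 CPM in WT control and at 51.8, 51.3, 54.5, 50.6 and 60.2 CPM in WT Pio mice. All Pio values were the higher ones (log2 fold change 0.68 ± 0.18, edgeR adjusted p = 0.0273). The call was lost without WT control mouse 831, 834 or 835 or WT Pio mouse 843 or 845, with log2 fold changes of 0.62 to 0.79. Leaving out KO Pio mouse 13, 7 members were called, against 15.5% of all genes in either direction, Hmgcs1 (1.24), Idi1 (1.14), Acat2 (0.86), Fdft1 (0.75), Sc5d (0.69) and Hsd17b7 (0.68) beside Tmem97, and without WT control mouse 833 the count was 3. It was 4 with the WT livers fitted alone, 3 by DESeq2 and 11 by limma.

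The regulators had no call here. Hmgcs1, whose values in both groups are given above, had 1.23 ± 0.40 (edgeR adjusted p = 0.0695), with WT control mouse 833 the only control liver inside the Pio range. Sqle had 0.79 ± 0.40, and Msmo1 0.90 ± 0.41. Srebf2 was measured at 125, 123, 121, 112 and 100.3 CPM in WT Pio mice (-0.11 ± 0.27), Srebf1 at 649.6, 665, 581, 486 and 346 CPM (-0.24 ± 0.40), Insig1 at 415, 368, 241, 340.4 and 272 CPM (0.15 ± 0.33) and Insig2 at 304, 176, 194, 260.3 and 142 CPM (-0.33 ± 0.31). All 4 overlapped with the control values. Log2 fold changes of the members not named in this comparison were -0.11 to 1.06. In the same comparison 4 of the 15 clock genes were called higher and 3 lower, among the latter Npas2 (log2 fold change -2.10 ± 0.47) and Cry1 (-1.54 ± 0.30), and the adipocyte markers had the ranges given above. Whether clock time or adipocyte-type transcripts bear on the members was not tested.

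Pio on control diet raised 7 members in KO liver, against 1003 genes higher (7.75%) and 163 lower (1.26%). They were Insig1, Sqle, Acss2, Scap, Tm7sf2, Srebf2 and Mvk, with a members' median of 0.64. Insig1 was measured at 353, 456, 1057, 233 and 204 CPM in KO Pio mice, all above the control values (log2 fold change 1.61 ± 0.33, edgeR adjusted p = 0.00848). Mouse 13 was the highest, at 1057 CPM. Sqle (log2 fold change 1.48 ± 0.41, edgeR adjusted p = 0.0261) and Acss2, at 145, 223, 151, 70.5 and 49.1 CPM in KO control and 666, 319.7, 175, 125 and 345 CPM in KO Pio mice (log2 fold change 1.35 ± 0.39, edgeR adjusted p = 0.0313), overlapped between the groups. Without mouse 13, 0 members were called by edgeR, 15 had an unadjusted p under 0.05, and 0.51% of all genes were called in either direction. The log2 fold change was then 1.07 for Insig1, 1.49 for Sqle, 1.53 for Acss2, 0.54 against 0.93 for Mvk, 0.56 against 1.03 for Tm7sf2, 0.37 against 1.06 for Scap and 0.27 against 0.96 for Srebf2, and 29 members had a positive value, with a median of 0.55. The count also fell to 1 without KO control mouse 1 or 4, 2 without mouse 5 and 3 without mouse 2. With the KO livers fitted alone edgeR called 0, with 12 at an unadjusted p under 0.05, and limma called 11. Beside the members, 4 of the 17 fatty acid synthesis genes were called higher, with a list median of 0.71.

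Mouse 13 had the highest Srebf2 and Srebf1 of its group, at 314 and 2905 CPM, with Insig2, Hmgcs1 and Msmo1 the lowest, at 31.3, 39.1 and 10.0 CPM. Srebf1 in KO liver had 1.21 ± 0.41 with it and 0.04 without it, Hmgcs1 0.70 ± 0.39 and 1.00, Msmo1 0.20 ± 0.40 and 0.50, and Insig2 -0.12 ± 0.31 and 0.18, none called either way. The members not named in this comparison had values of -0.26 to 1.14 with mouse 13 and -0.05 to 1.25 without it. The difference between the Pio effects of KO and WT liver on control diet was called for 1 member, Insig1, against 7.87% of all genes, at 1.46 ± 0.46 (edgeR adjusted p = 0.046), with effects of 1.61 ± 0.33 in KO and 0.15 ± 0.33 in WT liver. Without mouse 13 it was 0.90 (edgeR adjusted p = 0.176) and 0 members were called, 2 having an unadjusted p under 0.05, against 5.7% of all genes. The call was lost in 24 of the 40 fits that left out 1 mouse, those of WT control mice 833, 834 and 835, WT Pio mice 842 to 845, WT HFD mouse 830, WT HFD-Pio mice 837 to 839, KO control mice 1, 3, 4 and 5, KO Pio mouse 13, KO HFD mice 6, 8 and 10 and KO HFD-Pio mice 16 to 20. It was also lost with limma and without the filter on low counts. There were 4 calls without KO Pio mouse 11, 12 or 15, 3 without mouse 14 and 2 without WT HFD mouse 829. The members' median difference was 0.01, or 0.04 without mouse 13.

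**Figure D3:**
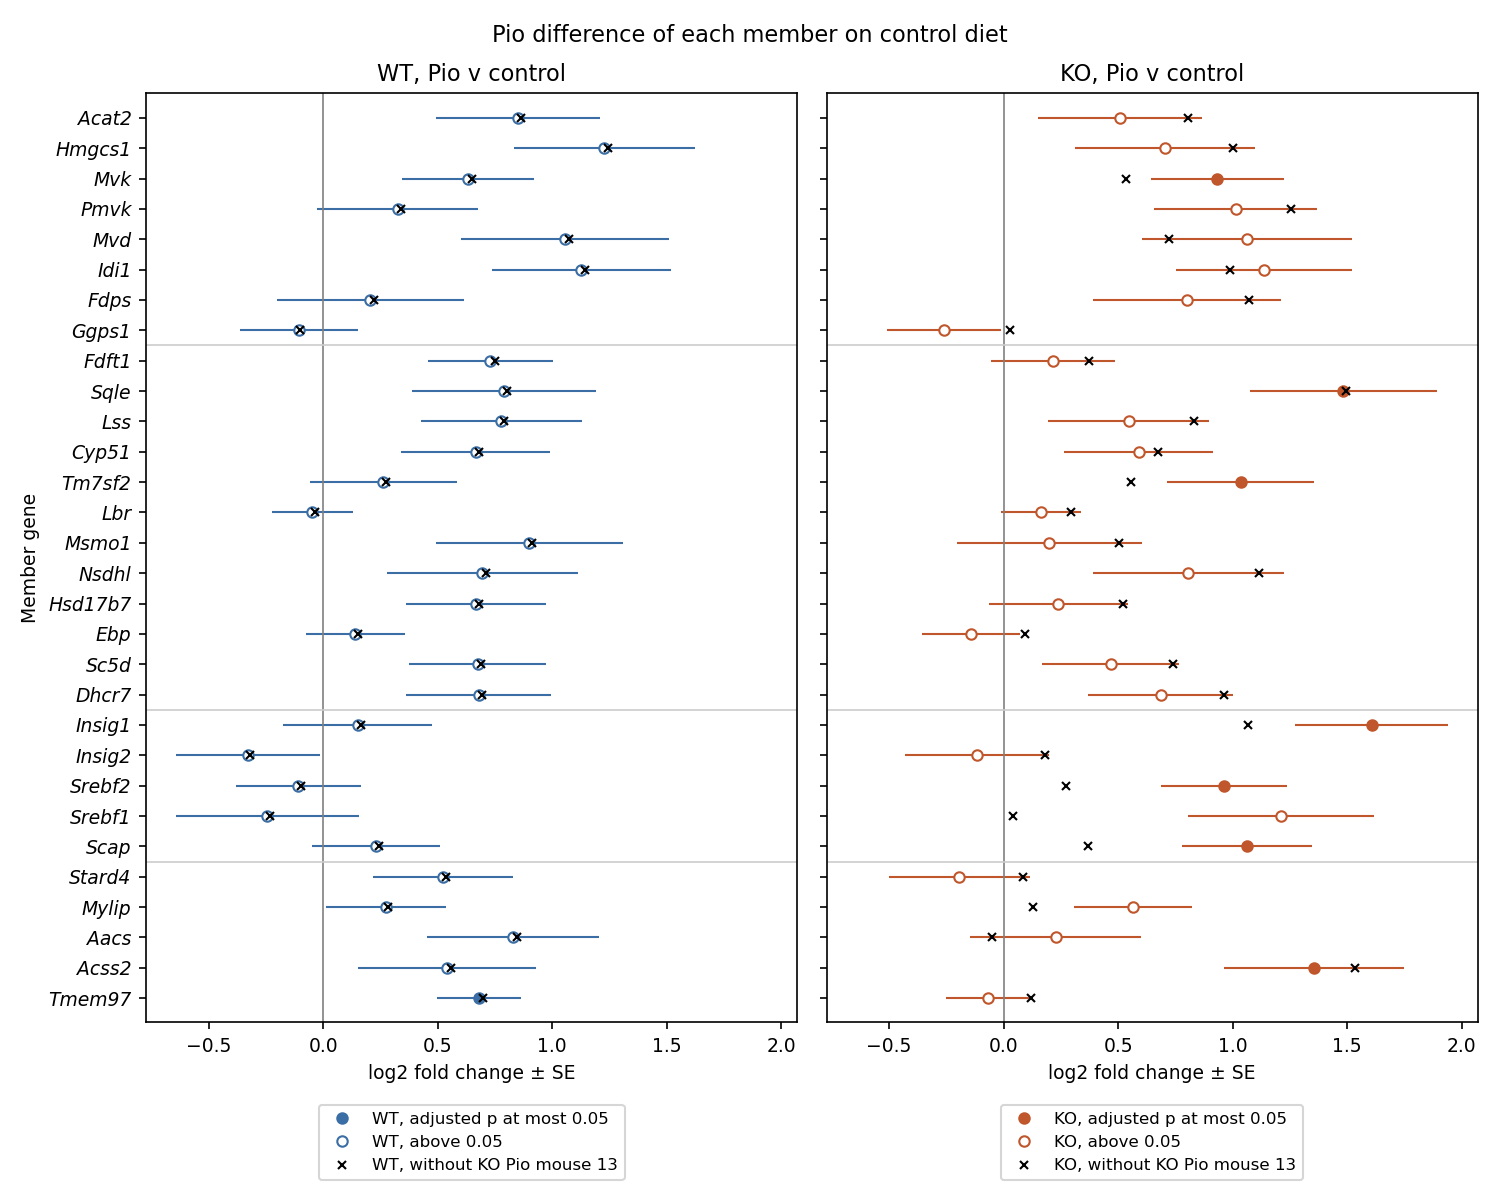
Log2 fold change ± SE of each of the 30 members for Pio against control in WT (left) and KO liver (right) on control diet, filled where the edgeR adjusted p was at most 0.05, with black crosses for the fit without KO Pio mouse 13. Crosses lie within the circles' error bars in WT liver, and in KO liver Srebf1 moves from 1.21 to 0.04 and Srebf2 from 0.96 to 0.27 when mouse 13 is left out.

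On HFD, Pio changed no member at the threshold in either genotype. In WT liver edgeR called 0 members, against 78 genes higher (0.603%) and 62 lower (0.479%), 4 members had an unadjusted p under 0.05, and limma and DESeq2 called 0. Without KO Pio mouse 13, Insig2 was called higher (0.68) and Srebf2 lower (-0.55), against 11.6% of all genes in either direction. That count of members does not set them apart from other genes. Insig2 was measured at 373, 344, 288, 260.3 and 194 CPM in WT HFD-Pio mice, overlapping the HFD mice (0.67 ± 0.32). Srebf2 was measured at 97.5, 103, 116, 116 and 107 CPM, with HFD mouse 827 the only HFD liver inside that range (-0.57 ± 0.27). Srebf1, at 798, 577, 544, 486 and 431 CPM, had 0.47 ± 0.40, Insig1, at 313, 258, 217, 234 and 162 CPM, 0.43 ± 0.33, Hmgcs1 -0.15 ± 0.39 and Sqle -0.43 ± 0.40. The other members ranged over -0.70 to 0.65, with Fdft1 lower in every HFD-Pio mouse than in any HFD mouse (log2 fold change -0.70 ± 0.27, edgeR adjusted p = 0.192).

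In KO liver on HFD, edgeR called 0 members, 1 had an unadjusted p under 0.05, and limma and DESeq2 called 0, against 0 genes higher (0%) and 2 lower (0.0155%) in all. The members' median was 0.02. Hmgcs1 (-0.07 ± 0.39), Sqle (-0.0031 ± 0.40) and Srebf2 (-0.06 ± 0.27) had values near 0. Insig1, at 445, 299, 365, 326 and 319 CPM in KO HFD-Pio mice, had 0.50 ± 0.33, Insig2 -0.36 ± 0.32 and Srebf1 0.23 ± 0.40. The highest value was that of Aacs, at 0.76 ± 0.37. Acss2 was measured at 244, 190.0, 243, 99.4 and 129 CPM in KO HFD and at 237, 259.6, 265, 242 and 228 CPM in KO HFD-Pio mice, whose range was the narrower (0.44 ± 0.39).

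Differences between Pio effects were rarely past the test. For KO minus WT on HFD, edgeR called 0 members, 1 had an unadjusted p under 0.05, limma and DESeq2 called 0, and 0.0927% of all genes were called. For HFD minus control diet in WT liver, edgeR called 0 members, 8 had an unadjusted p under 0.05, limma called 3 and DESeq2 1, and 0.0773% of all genes were called. Without KO Pio mouse 13 the Pio effects of Mvk (-1.32) and Fdft1 (-1.43) were called lower on HFD than on control diet, against 5.16% of all genes in either direction. That count of members does not set them apart from other genes. Fdft1 had 0.73 ± 0.27 on control diet and -0.70 ± 0.27 on HFD, and Mvk 0.63 ± 0.29 and -0.69 ± 0.29. The members' median difference was -0.46 in WT and -0.70 in KO liver, the latter -0.56 without mouse 13. In KO liver edgeR called 0 members, 6 had an unadjusted p under 0.05, limma and DESeq2 called 0, and 0% of all genes were called.

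In WT control liver, mouse 833 was the highest of its group in 23 of 30 members and mouse 832 the lowest in 22. In KO control liver, mouse 3 was the highest in 20 members and mouse 5 the lowest in 23, and in KO HFD liver mouse 9 was the lowest in 21. In KO HFD-Pio liver mouse 17 was the lowest in 20, and in WT HFD liver mouse 829 in 19. A median over the members of log2(CPM divided by the mean CPM of the control group of the same genotype) ranged from -0.86 to 0.57 in KO control, from -0.52 to 0.87 in KO Pio, from 0.48 to 1.06 in KO HFD and from 0.98 to 1.27 in KO HFD-Pio livers. Of the 10 KO livers on HFD with or without Pio, 8 lay above all 10 KO livers on control diet, the exceptions being KO HFD mice 9 and 10. In WT liver the same value ranged from -0.80 to 0.60 in control, from 0.17 to 0.77 in Pio, from -0.73 to 0.07 in HFD and from -0.35 to -0.05 in HFD-Pio mice.

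**Figure D4:**
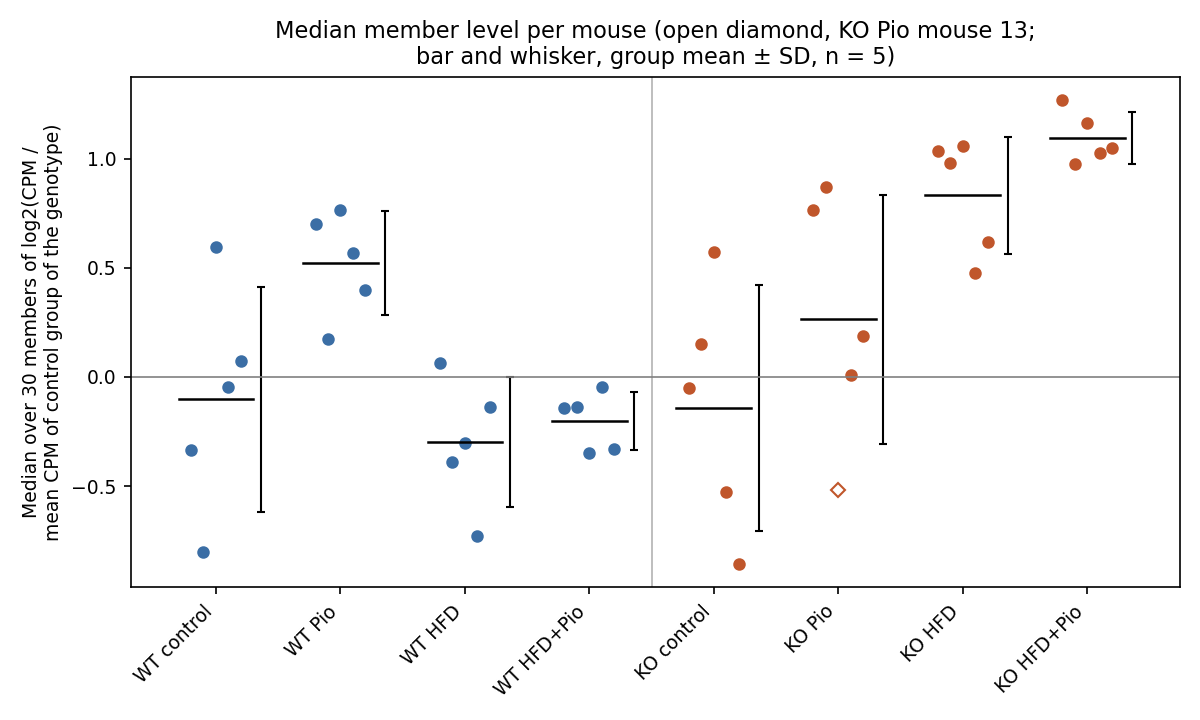
Median over the 30 members of log2(CPM divided by the mean CPM of the control group of the same genotype) for each mouse, with bars and whiskers for group mean ± SD (n = 5) and an open diamond for KO Pio mouse 13. KO HFD and KO HFD-Pio livers lie between 0.48 and 1.27, WT HFD and WT HFD-Pio livers between -0.73 and 0.07.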

How the data were processed

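RNA was extracted from 40 livers and, as the study's methods state, poly-A selected, sequenced, aligned with STAR 2.0.4b to GRCm38 and counted per gene with featureCounts 1.4.5. The deposited values are raw counts per gene, 1 column per mouse and 1 table per genotype, made by the authors without normalization. Repeated lines (598 and 574) were reduced to 1 per gene, the tables were joined on gene identifiers (40594 genes), 355 rRNA genes were taken out, and a minimum of 1 CPM in 5 or more of the 40 mice was required. Groups came from the labels.

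The count model was edgeR 4.0.16 under R 4.3.3 (quasi-likelihood test with robust options after TMM scaling, 8 groups in 1 fit, Benjamini-Hochberg adjustment within each comparison), with SE taken as the log2 fold change divided by the root of F. CPM used TMM-scaled totals and RPKM exon lengths of GENCODE M21. Alternatives were DESeq2 1.42.0, limma 3.58.1 with sample weights (the study's stated method), DESeq2 size factors, no filter on low counts, removal of ribosomal protein genes, each genotype alone, each mouse left out, and, added after the data were seen, removal of the 5 least correlated libraries. The fit was also run on counts simulated from its own model, for Pio in WT liver on control diet only. That run cannot show how the fit handles an outlying liver such as KO Pio mouse 13. Tables and plots were made with Python 3.11.15. Total counts per library set counting error, which is small beside the spread between mice except for Idi1 and Ggps1. Separate mice are the replicates.

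Values per mouse are given for Srebf2, Srebf1, Insig1, Insig2, Hmgcs1 and Sqle and for up to 3 called members of each direction with the largest log2 fold change in a comparison of 2 groups, of at least 5 CPM on average. Other genes shown per mouse in further comparisons repeat those. The members and lists were chosen with earlier results of these data known. Exons of Ggps1, Srebf1, Fdps, Hmgcs1, Idi1, Lss and Scap also overlap other annotated genes.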

Additional observations from a re-analysis of the deposited data

Results flagged for a closer look

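Within groups of 5 mice, single livers far from the others were looked for in the 11 members shown per mouse, 88 groups in all, by Dixon's ratio of the end gap to the range against its critical value of 0.71. It was exceeded in 6 groups, and chance alone gives about 1 in 20. KO Pio mouse 13 accounted for 2, with Srebf1 at 2905 CPM and Srebf2 at 314 CPM. KO control mouse 3 accounted for Srebf2 at 89.2 CPM and Msmo1 at 139 CPM, WT HFD mouse 826 for Fdft1 at 138 CPM, and WT HFD-Pio mouse 839 for Msmo1 at 73.0 CPM.

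Effects differed between KO and WT liver, by the edgeR test of the difference itself, for Sqle on HFD without Pio (log2 difference 2.81), for Fdft1 on HFD under Pio (2.33) and for Insig1 under Pio on control diet (1.46). The call for Sqle was lost in some of the fits that left out 1 mouse and without the filter on low counts, as given above. Insig1 was the only member called in its comparison, where 7.87% of all genes were called, which does not set the members apart from other genes. Its difference was 0.90 without KO Pio mouse 13 and then not called. The call for Insig1 was also lost in many other fits that left out 1 mouse and with limma, as given above.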

How the results depend on the processing

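Of 32 called changes of single members none reversed direction under any alternative. All 32 stayed called with DESeq2, with DESeq2 size factors and without ribosomal protein genes, 27 with limma, 23 without the filter on low counts, 22 without the 5 least correlated libraries, and 6 of 29 with each genotype alone. No paired analysis was possible because the groups share no replicate numbers.

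Counts of called members moved as follows, and the cause was not tested unless the alternative itself has fewer mice or more genes. They stand without the shares of all genes called in the same fits. With limma they were 11 for Pio in WT and 11 in KO liver on control diet, 16 for HFD under Pio in WT liver, 21 for HFD in KO liver without and 10 with Pio, 16 and 20 for the KO minus WT differences of the HFD effect without and with Pio, and 3 for HFD minus control diet of the Pio effect in WT liver. With DESeq2 they were 3 for Pio in WT liver on control diet, 9 for HFD under Pio in WT liver, 5 and 11 for the same KO minus WT differences of the HFD effect, 2 for that of the Pio effect on control diet and 1 for HFD minus control diet in WT liver. With each genotype alone they were 4 for Pio in WT and 0 in KO liver on control diet, 11 for HFD under Pio in WT liver, and 0 for HFD in KO liver without or with Pio. Without the filter on low counts they were 1 for HFD under Pio in KO liver and 0 for the KO minus WT differences of the HFD effect without Pio and of the Pio effect on control diet. Without the 5 least correlated libraries, chosen after seeing the data, they were 2 for Pio in WT liver on either diet, 4 for Pio in KO liver on control diet, 2 and 12 for HFD in WT liver without and with Pio, 9 and 4 for the KO minus WT differences of the HFD effect, and 0 for that of the Pio effect on control diet.

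With 1 mouse left out at a time, the counts ranged from 0 to 7 and from 0 to 2 for Pio in WT liver on control diet and HFD, from 0 to 10 and from 0 to 0 for Pio in KO liver, from 0 to 1 and from 0 to 11 for HFD in WT liver without and with Pio, from 1 to 11 and from 0 to 9 for HFD in KO liver, from 0 to 9 and from 1 to 13 for the KO minus WT differences of the HFD effect, from 0 to 4 and 0 to 0 for those of the Pio effect, and from 0 to 2 and 0 to 0 for HFD minus control diet in WT and KO liver. Depth limits Idi1 and Ggps1, whose lowest counts were 12 and 20.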
